A study of Mus musculus with 12 samples.

Results

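The tripartite motif (Trim) family was followed through RNA sequencing of whole mouse lung after exposure to house dust mite. Members were every gene symbol in the deposited count tables that begins with Trim and a number, 68 of 33924 genes in one set of libraries and 65 of 22609 in the other. A member was tested where its mean over the 6 libraries of a set was at least 1 CPM, a read count divided by the depth of its library, which left 47 members among 15491 genes in the first set and 42 among 14107 in the second. The mice were of the B6 strain, 6 to 8 weeks old, and lungs were taken 14 to 16 h after treatment with phosphate-buffered saline (PBS) or an extract of the mite Dermatophagoides farinae (D.f.). In the RNase III set, all mice were wild type and received PBS (replicates 1 and 2), D.f. extract (replicates 3 and 4) or D.f. extract together with RNase III, an enzyme that degrades double-stranded RNA (replicates 5 and 6). This set has no group given PBS with RNase III. In the knockout set, wild-type mice received PBS (replicate 1) or D.f. extract (replicates 3 and 4), and TLR3MAVS double-knockout mice, hereafter the knockout, received PBS (replicate 2) or D.f. extract (replicates 5 and 6). The labels do not say whether libraries of a group came from separate animals, so the spread behind each p-value is that of the libraries and may be technical.

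Trim proteins typically carry a RING finger, B-boxes and a coiled coil, though not every member has all of these, and most attach ubiquitin to other proteins. Some restrict viruses directly, others tune the signalling that follows recognition of foreign RNA or DNA, and the genes of many of these are induced by interferon. A further group binds chromatin and controls transcription, and another maintains striated muscle. Tlr3 is the receptor for double-stranded RNA in endosomes, and Mavs is the mitochondrial adaptor through which the cytosolic RNA receptors Ddx58 (RIG-I) and Ifih1 (MDA5) signal.

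The 5 members that were lower both when RNase III was added to the extract and in the knockout given the extract were Trim30a, Trim30d, Trim12c, Trim6 and Trim25. Their promoters, from 250 bases before to 50 bases after the start of transcription, are shown because these members carry the main result, and they also differ in the presence of an interferon-response motif. The sequences are from RefSeq, build GRCm38.p6, and each is written 5′ to 3′ on the strand of its gene. Capitals mark matches to the core of the interferon-stimulated response element, 2 copies of GAAA separated by any 2 bases, searched on both strands; in these promoters the match reads on the opposite strand. Trim30a lies at chr7:104465144-104465443 (minus strand), Trim30d at chr7:104507800-104508099 (minus strand), Trim12c at chr7:104353300-104353599 (minus strand), Trim6 at chr7:104218545-104218844 (plus strand) and Trim25 at chr11:88999153-88999452 (plus strand).
Trim30a: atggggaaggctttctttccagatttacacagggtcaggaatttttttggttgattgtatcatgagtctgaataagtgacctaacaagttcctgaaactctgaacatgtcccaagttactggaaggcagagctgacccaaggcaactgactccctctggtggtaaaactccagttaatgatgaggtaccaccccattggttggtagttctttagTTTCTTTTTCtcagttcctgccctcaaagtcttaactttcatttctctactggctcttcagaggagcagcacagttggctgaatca
Trim30d: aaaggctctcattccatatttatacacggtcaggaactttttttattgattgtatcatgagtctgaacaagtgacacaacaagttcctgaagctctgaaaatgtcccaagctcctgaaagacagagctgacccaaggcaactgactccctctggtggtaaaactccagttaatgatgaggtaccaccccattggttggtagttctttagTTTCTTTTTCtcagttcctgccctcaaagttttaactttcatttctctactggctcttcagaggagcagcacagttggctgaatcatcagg
Trim12c: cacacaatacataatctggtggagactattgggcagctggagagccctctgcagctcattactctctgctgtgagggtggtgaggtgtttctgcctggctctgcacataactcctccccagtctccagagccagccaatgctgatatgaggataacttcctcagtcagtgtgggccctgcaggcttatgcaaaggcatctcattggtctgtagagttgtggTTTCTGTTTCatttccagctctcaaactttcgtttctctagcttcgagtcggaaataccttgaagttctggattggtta
Trim6: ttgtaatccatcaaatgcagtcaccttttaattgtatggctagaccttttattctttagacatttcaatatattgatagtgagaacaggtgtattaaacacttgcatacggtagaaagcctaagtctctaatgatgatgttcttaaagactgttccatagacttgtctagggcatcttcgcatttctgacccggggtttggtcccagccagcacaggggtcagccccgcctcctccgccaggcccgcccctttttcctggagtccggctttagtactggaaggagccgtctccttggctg
Trim25: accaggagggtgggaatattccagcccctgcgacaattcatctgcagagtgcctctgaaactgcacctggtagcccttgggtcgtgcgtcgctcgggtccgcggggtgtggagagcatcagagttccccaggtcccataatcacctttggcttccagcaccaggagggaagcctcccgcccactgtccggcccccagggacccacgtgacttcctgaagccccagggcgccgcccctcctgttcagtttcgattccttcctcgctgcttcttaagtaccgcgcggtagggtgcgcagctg

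In Trim30a the first letter of the match lay 36 bases before the start, in Trim30d 41 bases and in Trim12c 29 bases before it. A second listed start of Trim30a, at chr7:104446076-104446375, held the same 10 letters. The windows of Trim6 and Trim25 held no match, which says only that these letters are not in these 300 bases. Over all promoters of the RefSeq table, 1131 of 32851 (3.44%) held the motif on either strand; per gene, 1079 of 27025 (3.99%) did in any listed promoter. Of 52 Trim members with an entry 9 held it (17.3%). The sites of the other 6 members, with 6 bases on each side, are shown so that the copies can be compared.
Trim5: ttgtggTTTCTGTTTCatttcc
Trim12a: ttgtggTTTCTGTTTCatttcc
Trim34a: ttggagTTTCAGTTTCttttct
Trim26: tttcacTTTCCTTTTCtcgggc
Trim21: tgagagGAAACTGAAAgtgaaa
Trim2: ctttggTTTCCTTTTCtctaag

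Trim5, Trim12a and Trim12c carry the same 22 bases around the match, and Trim30a and Trim30d share theirs, so these are copies of shared sequence and not separate occurrences. Trim21 and Trim26 each hold 2 overlapping matches, of which 1 is capitalised. In Trim21 the match is on the strand of the gene, and in the other members shown it is on the opposite strand. Among members that rose with D.f. extract in the RNase III set and have an entry, 8 of 14 held the motif (57.1%), and among tested members that did not rise, 1 of 23 held it (4.35%), namely Trim2. Trim14 is named only.

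Genes targeted in the knockout were checked first. Mavs was at 37.0, 34.3 and 32.1 CPM in the wild-type libraries of the knockout set and at 3.09, 2.65 and 2.34 CPM in the knockout libraries. Tlr3 in wild type was at 43.2 CPM with PBS and at 156 and 112 CPM with extract, against 10.5 CPM with PBS and 14.8 and 10 CPM with extract in the knockout. Both genes were lower in every knockout library, and the counts cover each whole gene. Between 15687699 and 25714074 reads per library were assigned to genes. A count of 0 therefore allows up to 3 reads, or 0.119 to 0.189 CPM, and such limits cover counting error only. All 10 lung markers checked, among them the surfactant genes Sftpc and Sftpb, were above 0 in every library. The tables of the sets list different numbers of genes, so levels were compared within a set. In bulk tissue, fewer cells of a type and less RNA per cell cannot be told apart.

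Summed over all members, Trim reads made up 2148 and 2017 CPM with PBS, 3178 and 3912 CPM with extract, and 2149 and 2171 CPM with extract and RNase III. Wild-type libraries of the knockout set gave 1985 CPM with PBS and 2896 and 2705 CPM with extract, and those of the knockout 2023 CPM with PBS and 2111 and 1981 CPM with extract. This sum was thus higher in each wild-type library given untreated extract than in any other library of its set. Abundant members weigh most in the sum, so it does not say that most members rose. Per kilobase of exon in RNase III set libraries, the order of the 47 tested members changed with treatment. Trim8, a regulator of cytokine signalling, and Trim44, which has a ubiquitin-protease type zinc finger, led the order with PBS at 43.7 and 43.3 CPM per kb, and their libraries overlapped (43.2 and 44.1 against 40.7 and 45.9 CPM per kb). With D.f. extract Trim30a led at 74.3 CPM per kb, up from position 16 with PBS, followed by Trim25 at 57.8 and Trim30d at 50.6 CPM per kb. The libraries behind these 3 means overlapped (59.3 and 89.4, 49.7 and 65.8, and 40.0 and 61.3 CPM per kb), so their order is not settled. With extract and RNase III, Trim8 and Trim44 led again and Trim30a stood at position 13 with 9.65 CPM per kb.

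Exposure to D.f. extract raised 15 of the 47 tested members in the RNase III set and lowered 0, by the edgeR quasi-likelihood test at an adjusted p below 0.05. Over all genes tested 6.87% were called higher and 4.84% lower. The median log2 fold change was 0.12 over the tested members and -0.01 over all genes. The 15 were Trim5, Trim6, Trim12a, Trim12c, Trim30a, Trim30b, Trim30c, Trim30d and Trim34a of a gene cluster on chromosome 7, Trim14, Trim21, Trim25, Trim26 and Trim56 among regulators of innate signalling, and Trim69. Trim30c and Trim69 were below 1 CPM with PBS and passed the filter only through the D.f. libraries, so they had to differ; of the 45 members at 1 CPM or more with PBS, 13 rose. None of the chromatin-bound, striated muscle, epithelial or neuronal members was called. Of these, Trim63 had also passed the filter only through its D.f. libraries.

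**Figure D1:**
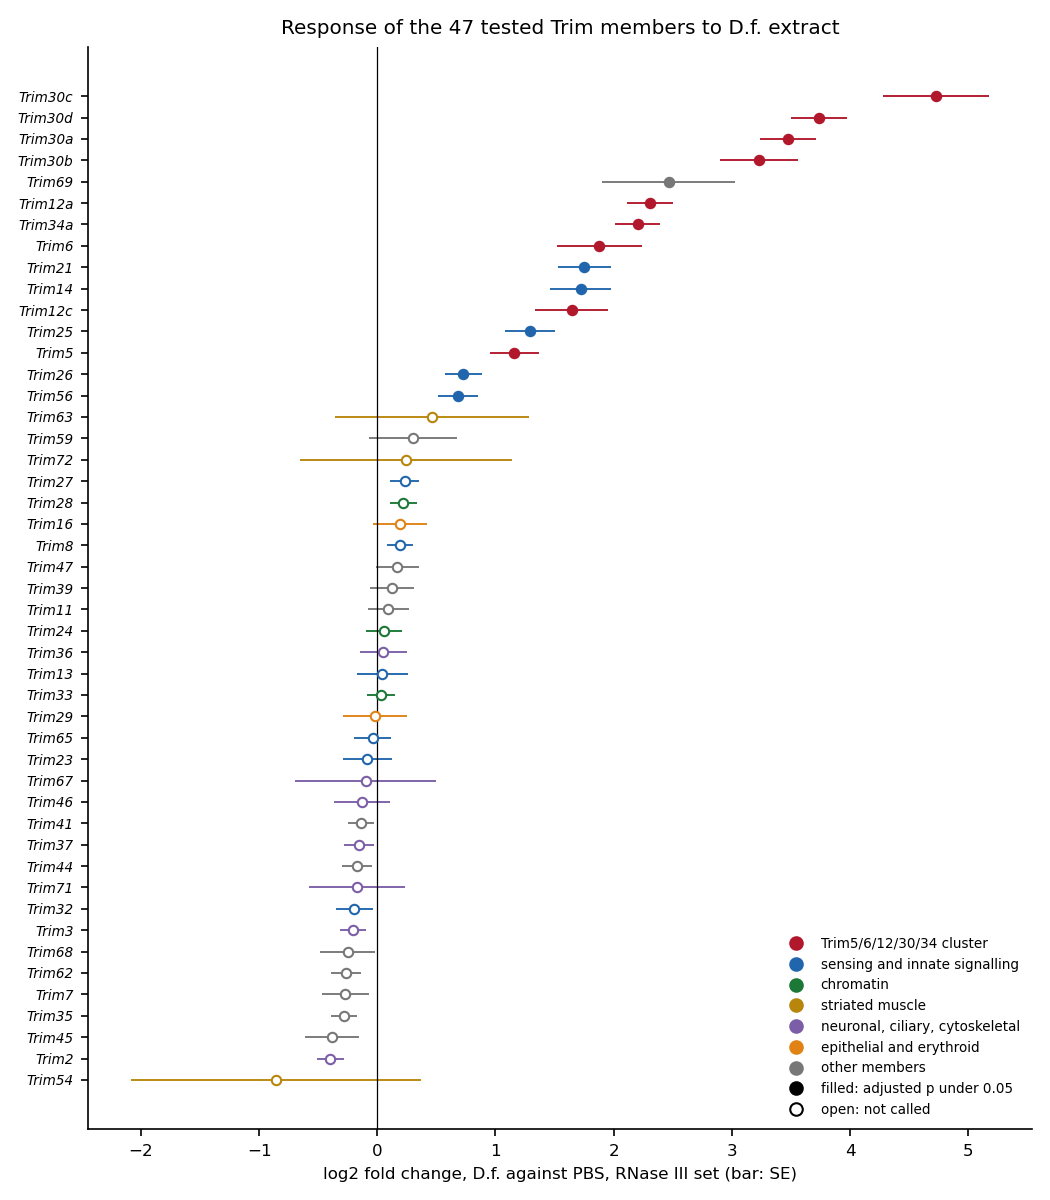
Log2 fold change of each tested Trim member with D.f. extract against PBS in the RNase III set (x axis, bars are standard errors), coloured by role, with filled points for an adjusted p under 0.05. The 15 filled points all lie to the right of 0, and Trim30c and Trim69 among them were tested only because of their D.f. libraries.

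The 9 tested genes of the cluster, the mouse relatives of the retroviral restriction factor TRIM5, all rose, with a median log2 fold change of 2.31 (2.26 over the 8 without Trim30c). The cluster spans 316.6 kb of chromosome 7, from 111367307 to 111683875 in NCBIM37, and its annotation lists 11 genes; Trim34b and the pseudogene Trim30e-ps1 were below the filter. Trim30a, which limits Toll-like receptor signalling by degrading Tab2 and Tab3, was at 59.1 and 46.5 CPM with PBS and at 467 and 705 CPM with extract. The libraries given extract were both far above those given PBS, with a log2 fold change of 3.47 ± 0.24 (SE), or 11.1-fold (adjusted p = 0.000526). Such separation of libraries, higher with extract, was seen in 26.1% of all genes tested, so it is common with 2 libraries against 2. Trim30d, the adjacent copy, was at 13.4 and 15.1 CPM with PBS and at 150 and 230 CPM with extract. It rose 13.3-fold, by 3.74 ± 0.24 on the log2 scale (adjusted p = 0.000453), without overlap. Trim30b was at 2.22 and 4.40 CPM with PBS and at 26.5 and 36.4 CPM with extract. It rose 9.38-fold without overlap (log2 3.23 ± 0.33, adjusted p = 0.00198). Trim30c was at 1.11 and 0.453 CPM with PBS and at 15.01 and 25.7 CPM with extract. Its log2 fold change of 4.73 ± 0.45 is a description, since the filter fixed its direction.

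The remaining genes of the cluster rose 2.23- to 4.94-fold. Trim12a, a close relative of Trim5, was at 27.3 and 30.1 CPM with PBS and at 115 and 168 CPM with extract. Its log2 fold change was 2.31 ± 0.20 (adjusted p = 0.00104). Trim34a went from 16.9 and 13.1 CPM to 59.6 and 78.6 CPM (log2 2.21 ± 0.19, adjusted p = 0.0011). Both genes were separated between the groups by more than the spread within either. Trim6, which builds free ubiquitin chains that activate the kinase Ikbke, was at 3.88 and 2.90 CPM with PBS and at 8.28 and 16.6 CPM with extract (log2 1.88 ± 0.36, adjusted p = 0.019). Trim12c was at 43.6 and 20.9 CPM with PBS and at 92.8 and 109 CPM with extract (log2 1.65 ± 0.31, adjusted p = 0.0173). Trim5 was at 5.10 and 6.93 CPM with PBS and at 13.5 CPM in both extract libraries (log2 1.16 ± 0.21, adjusted p = 0.0148). No library of these 3 genes crossed between the groups. Reads on bases shared by genes may be missing from these counts, since ambiguous and not uniquely aligned reads stayed out of them. Of the exon bases of Trim34a, 20.6% are shared with Trim34b and 23.8% with genes of the opposite strand. Some 100-base stretches of the transcripts of these genes also occur in another gene. Their share was 26% in Trim34a, 13.3% in Trim12c, 10.6% in Trim5, 8.4% in Trim12a and 5.5% in Trim30d. Values of these genes, and of the genes they share bases with, are uncertain to that extent.

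**Figure D2:**
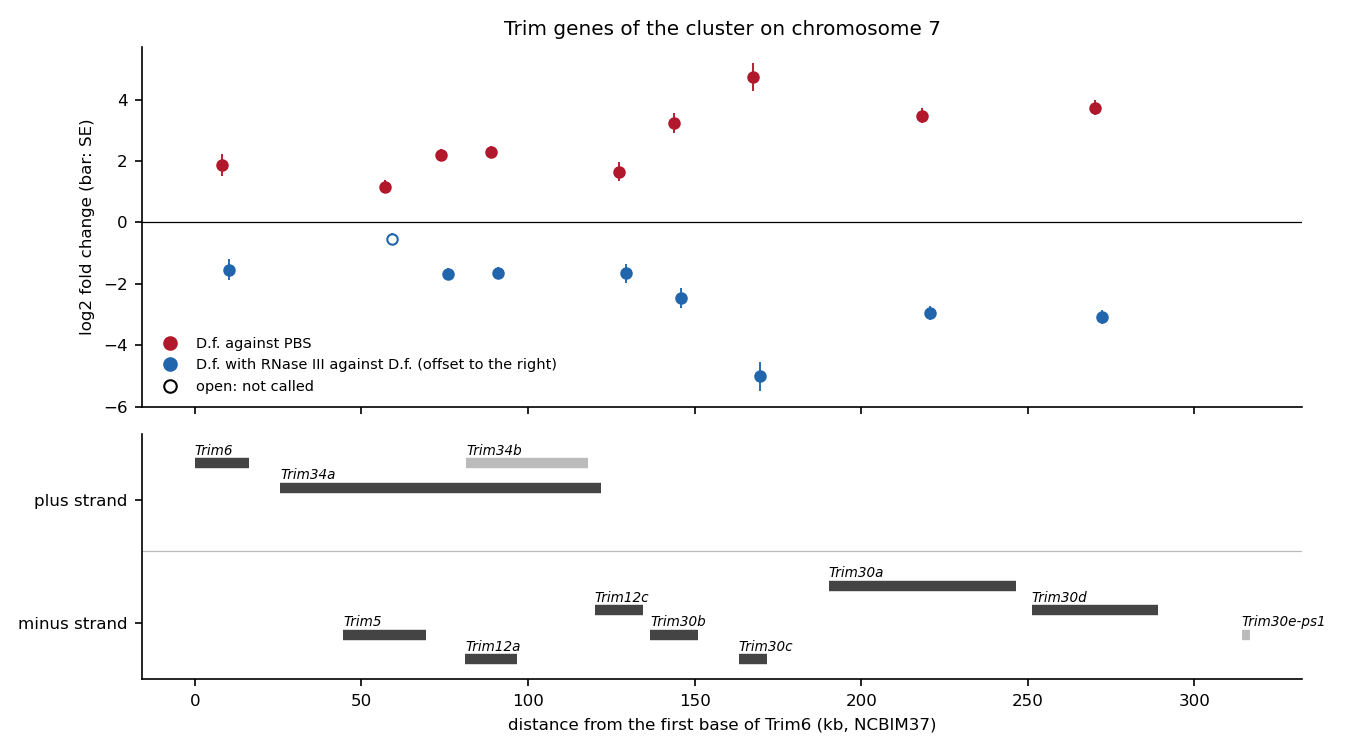
Log2 fold changes (top, bars are standard errors) and gene positions (bottom) along the cluster on chromosome 7, in kb from the first base of Trim6 in NCBIM37, with untested genes in grey. The 9 tested genes all lie above 0 for D.f. against PBS and below 0 for RNase III with extract against extract alone, where Trim5 was the one not called.

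Outside the cluster, 5 of 11 tested regulators of nucleic acid sensing and innate signalling rose, and the median log2 fold change of the 11 was 0.23. Trim21, a cytosolic antibody receptor and ubiquitin ligase on chromosome 7 (109706436 to 109713983, NCBIM37), was at 25.4 and 21.5 CPM with PBS and at 61.2 and 96.8 CPM with extract (log2 1.75 ± 0.22, adjusted p = 0.00413). Trim14, which acts with Mavs at mitochondria, was at 19.5 and 12.6 CPM with PBS and at 43.1 and 62.7 CPM with extract (log2 1.72 ± 0.26, adjusted p = 0.00751). Of the exon bases of Trim14, 37.1% lie opposite other genes, and its reads cannot be told apart from theirs without strand. Trim25, the ligase that modifies Ddx58 (chromosome 11, 88860690 to 88881607, NCBIM37), was at 161 and 112 CPM with PBS and at 286 and 379 CPM with extract (log2 1.29 ± 0.21, adjusted p = 0.0107). These 3 genes did not overlap between the groups. Trim26, which targets Irf3, rose by 0.73 ± 0.16 on the log2 scale (adjusted p = 0.0289) and Trim56, a partner of the DNA-sensing adaptor Tmem173 (STING), by 0.68 ± 0.17 (adjusted p = 0.0467). Trim8, Trim13, Trim23, Trim27, Trim32 and Trim65 lay between -0.19 and 0.23 and were not called. Trim69, a microtubule-binding member of neither list, was at 0.443 and 0.363 CPM with PBS and at 1.23 and 3.28 CPM with extract (log2 2.47 ± 0.56), a direction that the filter fixed.

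Several of these calls depended on single libraries or on the fit. Without D.f. replicate 4, which was the higher of the 2 D.f. libraries for each of the 15 members, 7 calls were left, those of Trim12a, Trim21, Trim30a, Trim30b, Trim30c, Trim30d and Trim34a, which also held under each other alternative that tested them. Trim5, Trim6, Trim12c, Trim14, Trim25, Trim26, Trim56 and Trim69 then had adjusted p from 0.0592 (Trim14) to 0.228 (Trim56). Without D.f. replicate 3, Trim12c (adjusted p = 0.0729), Trim5 (0.0906) and Trim56 (0.0611) missed the threshold. Trim56 and Trim69 each did so in 5 of the 6 fits that left out 1 library, and Trim26 in 3 of them. With only the 2 groups compared in the fit, Trim26 (adjusted p = 0.0785), Trim56 (0.127) and Trim69 (0.0767) were not called.

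**Figure D3:**
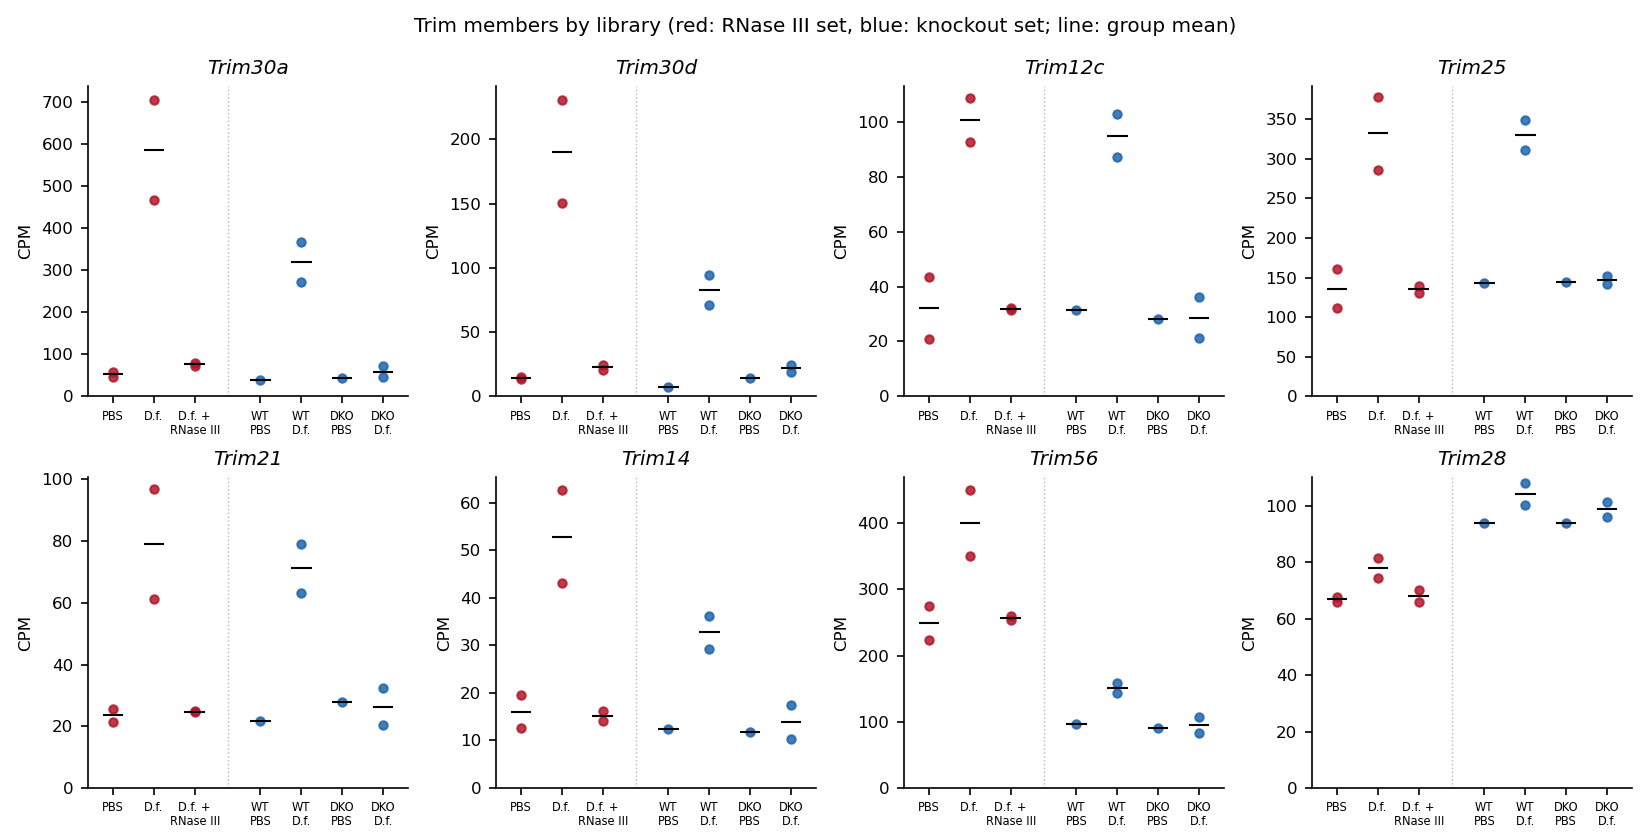
CPM of 8 Trim members in each library (points) with the group mean (line), in the RNase III set (red) and the knockout set (blue); y axes start at 0. In 7 of the panels the wild-type libraries given untreated extract lie above the other libraries of their set, and in the panel of Trim28 the groups lie close together.

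Adding RNase III to the extract asked how the response depends on intact double-stranded RNA in the material given. Against untreated extract, 12 of the 47 tested members were lower and 1 was higher, where 5.35% of all genes were called lower and 2.65% higher (edgeR quasi-likelihood test). The filter let Trim30c in only through its D.f. libraries, which fixed its fall; of the 45 members at 1 CPM or more with PBS, 11 were lower. These values share the D.f. libraries with the comparison against PBS, so the sizes of the rise and of the fall are not independent and are given side by side. Trim30a was at 78.7 and 73.5 CPM with RNase III, against 467 and 705 CPM without it, a fall of 2.95 ± 0.23 on the log2 scale (adjusted p = 0.0012). Trim30d was at 24.7 and 20.8 CPM with RNase III (log2 -3.07 ± 0.23, adjusted p = 0.00099) and Trim30b at 5.19 and 6.26 CPM (log2 -2.45 ± 0.32, adjusted p = 0.00604). Trim30c, at 0.607 and 0.642 CPM, lay within the range of the PBS libraries (log2 -5.01 ± 0.46, given as a description). All 4 Trim30 genes were lower in both RNase III libraries than in either library of untreated extract; over all genes 31.2% were separated in that direction.

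Over the 9 tested cluster genes the median log2 change with RNase III was -1.68, and 8 passed the test; without Trim30c the median was -1.67 and 7 of 8 passed. Trim34a was at 21.1 and 22 CPM with RNase III (log2 -1.68 ± 0.19, adjusted p = 0.00343) and Trim12a at 47.5 and 43.8 CPM (log2 -1.64 ± 0.19, adjusted p = 0.00409). Trim12c was at 32.3 and 31.6 CPM (log2 -1.66 ± 0.31, adjusted p = 0.0221) and Trim6 at 4.36 and 4.23 CPM (log2 -1.53 ± 0.36, adjusted p = 0.0461). Trim5, at 9.87 and 8.62 CPM, was not called (log2 -0.54 ± 0.20, adjusted p = 0.167), although both libraries lay below those of untreated extract. Among the regulators of sensing, Trim14 was at 14.1 and 16.2 CPM (log2 -1.80 ± 0.26, adjusted p = 0.00855), Trim21 at 24.9 and 24.5 CPM (log2 -1.67 ± 0.22, adjusted p = 0.00673) and Trim25 at 139 and 131 CPM (log2 -1.30 ± 0.21, adjusted p = 0.0138). Trim12c, Trim14, Trim21 and Trim25 thus had both RNase III libraries inside the range of the PBS libraries. Trim26 fell by 0.76 ± 0.16 on the log2 scale (adjusted p = 0.0323), and Trim56 was not called (log2 -0.64 ± 0.17, adjusted p = 0.0703). The 1 member that was higher was Trim2, a neuronal ubiquitin ligase, at 66.4 and 60.7 CPM with PBS, 49.2 and 47.3 CPM with extract, and 73.7 and 71.8 CPM with extract and RNase III (log2 0.59 ± 0.11, adjusted p = 0.0248). Leaving out either library given RNase III (replicate 5 or 6) left 3 calls, those of Trim30a, Trim30d and Trim30c, whose fall the filter fixed, and the other 10 then had adjusted p from 0.0507 (Trim34a) to 0.307 (Trim26). Leaving out D.f. replicate 4 left the calls of Trim12a, Trim21, Trim30a, Trim30c, Trim30d and Trim34a. Without PBS replicate 1 or 2, Trim54, Trim56, Trim63 and Trim72 were also called lower and Trim62 higher.

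Against PBS, extract with RNase III gave 0 called members in the edgeR quasi-likelihood test, with 5 of 47 at an unadjusted p under 0.05. That test called 0.00646% of all genes, with 748 of 15491 at an unadjusted p under 0.05. DESeq2 called 0 members and 48 of 15491 genes. A call that misses the threshold does not show equal levels. Both RNase III libraries lay above both PBS libraries for 16 of the 47 members, and 16.6% of all genes were separated in that direction. In the cluster these were Trim12a (log2 0.67 ± 0.19), Trim30a (0.53 ± 0.22), Trim30b (0.78 ± 0.34), Trim30d (0.67 ± 0.22), Trim34a (0.52 ± 0.19), Trim5 (0.62 ± 0.21) and Trim6 (0.35 ± 0.37), each with an adjusted p of 0.924 or more in the edgeR test. Outside it they were Trim2, Trim8, Trim24, Trim27, Trim33, Trim36, Trim62, Trim65 and Trim69. Trim30c (-0.28 ± 0.55), Trim12c (-0.01 ± 0.31), Trim14 (-0.08 ± 0.26), Trim21 (0.08 ± 0.22) and Trim25 (-0.01 ± 0.21) overlapped between these groups.

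The knockout set asked how far the response depends on Tlr3 and Mavs. In wild-type lung, D.f. extract raised 3 of the 42 tested members and lowered 0, with 15 at an unadjusted p under 0.05, where 1.27% of all genes were called higher and 0.128% lower (edgeR quasi-likelihood test, with 1 PBS library that is assumed to vary like the other groups) and 2511 of 14107 genes had an unadjusted p under 0.05. Trim30d was at 7.65 CPM with PBS and at 94.5 and 71.2 CPM with extract (log2 3.44 ± 0.29, adjusted p = 0.026). Trim30a went from 38.7 CPM to 367 and 273 CPM (log2 3.05 ± 0.37, adjusted p = 0.0373) and Trim25 from 144 CPM to 350 and 311 CPM (log2 1.20 ± 0.13, adjusted p = 0.0358). These 3 are 25% of the 12 members called higher with extract in the RNase III set and tested in both, and that set shares no library with this one. The other 9 were higher in both extract libraries than in the PBS library, as 39% of all genes were, but did not pass the test; their log2 fold changes ran from 0.65 ± 0.18 for Trim56 (adjusted p = 0.171) to 2.30 ± 0.50 for Trim30b (adjusted p = 0.114). Trim12a, for example, was at 11.4 CPM with PBS and at 42.7 and 36.8 CPM with extract (adjusted p = 0.0889). Trim30c and Trim5 are not listed in the tables of this set. Without wild-type D.f. replicate 3 or 4, no member was called. Log2 fold changes were then 3.22 or 3.63 for Trim30d, 2.82 or 3.25 for Trim30a and 1.11 or 1.28 for Trim25. Without knockout D.f. replicate 5 or 6, more members were called, in both directions. Trim37, Trim62 and, without replicate 6, Trim68 were then called lower with extract, and the rest higher.

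In the knockout, extract changed 0 of the 42 tested members in the edgeR quasi-likelihood test, with 0 at an unadjusted p under 0.05, and DESeq2 called 0. Over all genes edgeR called 0%, with 786 of 14107 at an unadjusted p under 0.05, and DESeq2 called 36. Trim30a was at 44.5 CPM with PBS and at 72.4 and 45.5 CPM with extract (log2 0.41 ± 0.32). Trim30d was at 14.4 CPM and at 24.6 and 18.9 CPM (log2 0.59 ± 0.25), and Trim25 at 144 CPM and at 152 and 143 CPM (log2 0.03 ± 0.13). The knockout libraries given extract differed from each other for many members, with replicate 5 above replicate 6 for Trim12a (33.1 and 19.8 CPM), Trim34a (31.0 and 16.8 CPM), Trim21 (32.4 and 20.4 CPM) and Trim12c (36.2 and 21.2 CPM). Without replicate 5 the test called 1 member lower, Trim45 (log2 -1.10, adjusted p = 0.0251). Without replicate 6 it called 3 higher, Trim30a (log2 0.70, adjusted p = 0.00499), Trim30d (0.77, adjusted p = 0.00833) and Trim29 (1.01, adjusted p = 0.0198).

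Between genotypes given extract, 5 of the 42 tested members were lower in the knockout and 0 were higher, where 1.94% of all genes were called lower and 0.496% higher (edgeR quasi-likelihood test). This comparison shares the wild-type D.f. libraries with the wild-type response above. Trim30a was 5.42-fold lower (log2 -2.44 ± 0.27, adjusted p = 0.0231) and Trim30d 3.81-fold lower (log2 -1.93 ± 0.20, adjusted p = 0.0207). Trim12c was at 103 and 87.1 CPM in wild type and at 36.2 and 21.2 CPM in the knockout (log2 -1.73 ± 0.26, adjusted p = 0.0433). Trim6 was at 11.1 and 9.51 CPM in wild type and at 4.30 and 3.53 CPM in the knockout (log2 -1.40 ± 0.20, adjusted p = 0.0373). Trim25 was 2.25-fold lower (log2 -1.17 ± 0.10, adjusted p = 0.0156). The groups did not overlap for these 5 genes, as for 25.7% of all genes in that direction. All 5 were also among the 11 members that were lower with RNase III and tested in both sets, or 45.5% of the 11, and the libraries of these comparisons are separate. Without wild-type D.f. replicate 3 or 4, however, 0 members were called, with adjusted p for the 5 from 0.102 (Trim30d) to 0.414 (Trim6). Without knockout D.f. replicate 5 or 6, more members were called. All were lower in the knockout except Trim62, which was higher without replicate 5 (log2 0.41).

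The other 6 members that were lower with RNase III did not pass the test between genotypes, and they differed in how they lay. Trim21 was at 79.1 and 63.3 CPM in wild type given extract and at 32.4 and 20.4 CPM in the knockout given extract (log2 -1.44 ± 0.24, adjusted p = 0.0551). Trim14 was at 36.2 and 29.3 CPM in wild type and at 17.4 and 10.3 CPM in the knockout (log2 -1.25 ± 0.27, adjusted p = 0.0933), and Trim26 had a log2 difference of -0.73 ± 0.15 (adjusted p = 0.0841). These 3 were separated between the genotypes in the same direction as the 5 called. Trim34a was at 53.3 and 44.2 CPM in wild type (log2 -1.03 ± 0.29, adjusted p = 0.155) and Trim12a differed by -0.59 ± 0.25 (adjusted p = 0.299), also without overlap. Trim30b overlapped, at 4.72 and 2.69 CPM in wild type and 3.77 and 3.83 CPM in the knockout (log2 0.03 ± 0.32, adjusted p = 0.977). Trim30b was at low level in this set and Trim30c, its neighbour, is not listed there.

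With PBS alone, the single knockout library lay apart from the single wild-type library for some of these genes, a description with no test. Trim30b was at 0.754 CPM in wild type and 2.27 CPM in the knockout (13 and 36 reads), Trim12a at 11.4 and 24.2 CPM, Trim30d at 7.65 and 14.4 CPM and Trim34a at 14.3 and 23.4 CPM. Trim25 (144 CPM in both), Trim12c (31.4 and 28.0 CPM), Trim14 (12.4 and 11.7 CPM) and Trim6 (5.51 and 4.596 CPM) lay close together. The difference of the D.f. response between genotypes, which takes the PBS libraries into account, gave 0 called members in the edgeR quasi-likelihood test, 11 at an unadjusted p under 0.05 and 5 called in DESeq2, where edgeR called 0% of all genes, with 1404 of 14107 at an unadjusted p under 0.05, and DESeq2 called 213. Its largest values were -2.84 ± 0.36 for Trim30d (adjusted p = 0.167), -2.64 ± 0.46 for Trim30a (adjusted p = 0.201) and -1.79 ± 0.43 for Trim21 (adjusted p = 0.279) on the log2 scale, negative where the knockout responded less. For Trim12a the value was -1.68 ± 0.45 (adjusted p = 0.314), against -0.59 between the genotypes given extract. Without knockout D.f. replicate 5 or 6, some members were called, with negative values except for Trim37 (log2 0.50 without replicate 6).

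**Figure D4:**
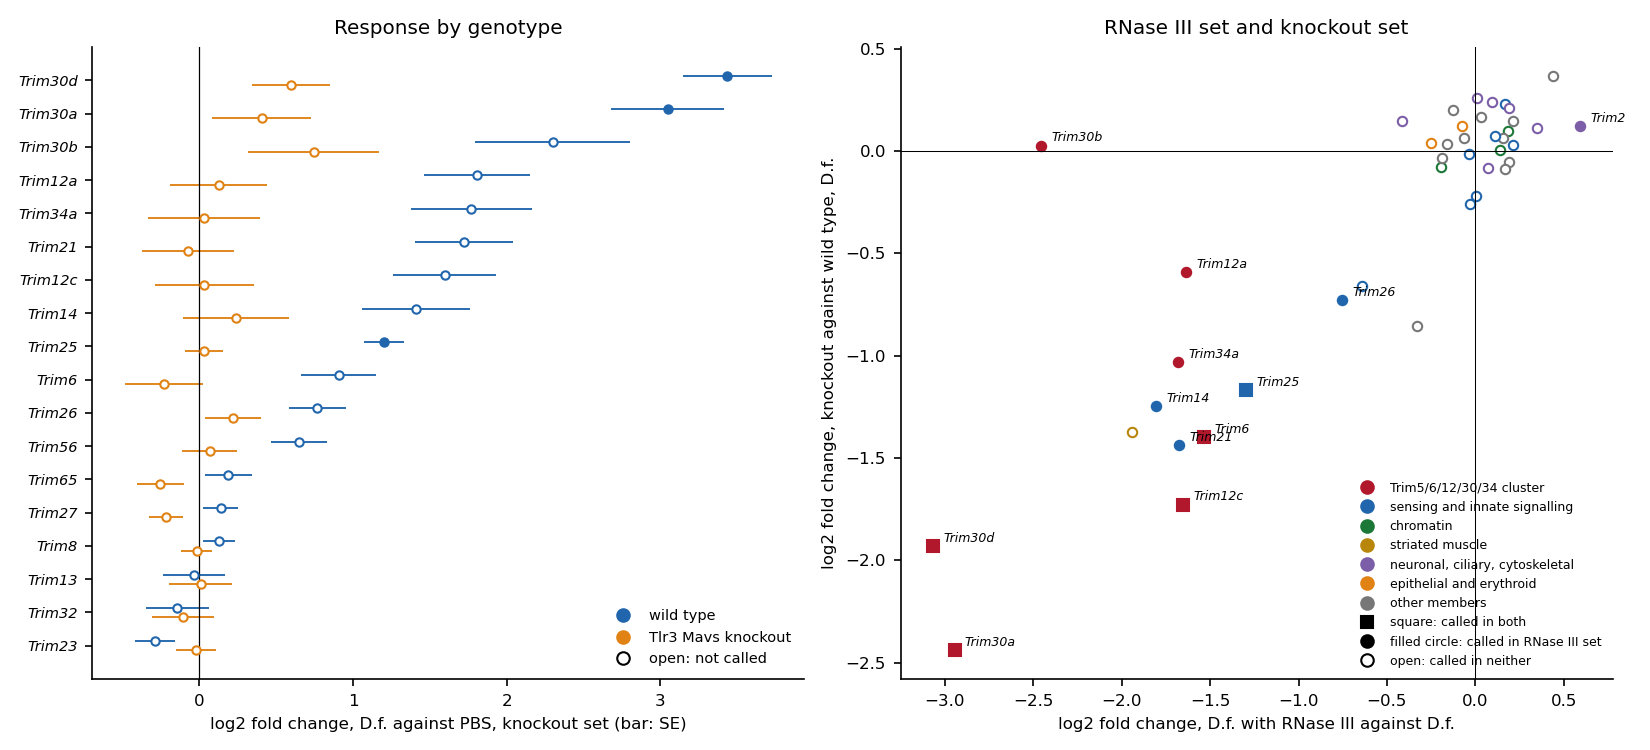
Left, log2 fold change with D.f. extract in wild type and knockout for members of the cluster and the sensing list (bars are standard errors, filled where called). Right, the change with RNase III (x axis) against the difference of knockout from wild type given extract (y axis) for the 42 members tested in both sets, which share no library; squares mark Trim30a, Trim30d, Trim12c, Trim6 and Trim25, called in both, and Trim30b lies near 0 on the y axis.

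A fit over the 7 wild-type libraries of both sets that received PBS or untreated extract, with a term for the set, was also made. By the edgeR quasi-likelihood test 13 of 45 tested members rose and 2 fell, where 9.45% of all genes were called higher and 6.19% lower. The 13 were Trim69, again tested only because of its D.f. libraries, and the 12 members tested in both sets that rose in the RNase III set, with log2 fold changes from 0.67 ± 0.13 for Trim56 (adjusted p = 0.0111) to 3.63 ± 0.20 for Trim30d (adjusted p = 8.04e-05). Trim2 fell by 0.33 ± 0.08 on the log2 scale (adjusted p = 0.0385) and Trim62, a ligase that acts on the adaptor Card9, by 0.38 ± 0.10 (adjusted p = 0.039). In the knockout set Trim2 was at 61.8 CPM with PBS and at 52.5 and 53.1 CPM with extract in wild type. Both falls rested on most of the libraries: the call of Trim2 was lost in 6 and that of Trim62 in 5 of the 7 fits that each left out 1 library, while neither changed direction. Leaving out single libraries gave 12 to 16 calls.

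Some other genes of these pathways, outside the family, were called in the same comparisons. Of 19 tested partners of Trim proteins in RNA and DNA sensing, 9 rose with extract in the RNase III set, where 6.87% of all genes did. The median log2 fold change of the 19 was 0.51. Among the 9 were Ddx58 (log2 2.24 ± 0.22, adjusted p = 0.00161), Ifih1 (2.55 ± 0.17, adjusted p = 0.000526) and Isg15, a ubiquitin-like modifier (4.61 ± 0.51, adjusted p = 0.00256). With RNase III 8 of the 19 were lower, against 5.35% of all genes. In the knockout set 4 of the 19 rose in wild type, namely Ddx58, Ifih1, Isg15 and Zc3hav1, where 1.27% of all genes did. These 4 were lower in the knockout given extract besides Mavs and Tlr3, which are deleted, where 1.94% of all genes were lower. Of 4 Trim proteins whose genes have another symbol, Pml, Mefv and Mid1 rose with extract in the RNase III set. Pml, the organiser of nuclear bodies, was at 63.3 and 50.5 CPM with PBS, 172 and 273 CPM with extract, and 53.6 and 54.1 CPM with RNase III. Pml was called in both sets, with log2 values of 1.97 and 2.17 for the rise with extract, -2.05 with RNase III and -1.93 in the knockout. Mefv, which encodes the inflammasome protein pyrin, rose by 3.87 ± 0.28 in the RNase III set (adjusted p = 0.00057) and was not called in the knockout set. Log2 changes of the 4 genes with extract in wild type of that set ran from -0.44 to 3.44, and the largest was not called. A missed call there does not show equal levels. Mid1 was not called there either, with a log2 change of -0.44 ± 0.37 with extract in wild type (adjusted p = 0.581) and 1.65 ± 0.31 between the knockout and wild type given extract (adjusted p = 0.0678).

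Levels of leukocyte marker genes were higher with extract in the RNase III set for several cell types. The summed level of 6 NK cell markers was 31.6 and 22.3 CPM with PBS, 91.8 and 86.8 CPM with extract and 25.98 and 25.3 CPM with RNase III, with 5 of 6 called higher and then 6 of 6 lower. That of 7 monocyte and macrophage markers was 268 and 279 CPM with PBS, 601 and 551 CPM with extract and 304 and 323 CPM with RNase III, with 4 of 7 called higher and 2 of 7 lower. Of 6 T cell markers 2 were called higher with extract and 5 lower with RNase III, of 6 neutrophil markers 2 higher and 1 lower, and of 5 B cell markers 0 higher and 2 lower. In the knockout set the cell types differed from each other. With extract the monocyte sum was 335 and 481 CPM in the knockout, against 432 and 398 CPM in wild type, and the neutrophil sum was 80.2 and 261 CPM against 121.5 and 67.98 CPM, so both overlapped between genotypes. The NK sum was 13.6 CPM with PBS and 44.6 and 40.4 CPM with extract in wild type. In the knockout the NK sum was 46.3 CPM with PBS and 27.5 and 13.8 CPM with extract. The T cell sum, over 5 markers here, was 13.1 CPM with PBS and 27.7 and 29.2 CPM with extract in wild type. In the knockout the T cell sum was 19.3 CPM with PBS and 13.96 and 12.98 CPM with extract. NK and T cell sums given extract were thus lower in the knockout, without overlap, as 25.7% of all genes were. Between the genotypes given extract, however, 0 of 6 NK and 0 of 5 T cell markers were called by the edgeR quasi-likelihood test. The B cell sum overlapped between genotypes given extract, at 40.45 and 18.86 CPM in the knockout and 33.76 and 41.55 CPM in wild type. No listed marker of these types was at 0 in any library, and their part in the Trim values was not tested.

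The chromatin-bound members stayed uncalled in each comparison. Trim28, the co-repressor of KRAB zinc finger proteins, was at 66.1 and 67.7 CPM with PBS, 74.5 and 81.5 CPM with extract, and 66.0 and 70.2 CPM with RNase III (log2 0.22 ± 0.11 with extract, adjusted p = 0.265). Trim24, a co-regulator of nuclear receptors, was at 45.2 and 35.6 CPM, 38.7 and 45.3 CPM, and 45.2 and 47.4 CPM in the same order. Trim33, which binds Smad proteins, was at 85.5 and 76.2 CPM, 79.7 and 85.4 CPM, and 95.0 and 92.3 CPM. The groups of Trim24 and Trim33 overlapped between PBS and extract, and those of Trim28 did not. In the knockout set Trim28 ranged from 93.8 to 108 CPM, Trim24 from 42.4 to 50.3 CPM and Trim33 from 93.2 to 111 CPM over all 6 libraries. Of 10 partners of these proteins, among them Setdb1, Cbx5 and Smad4, 0 were called with extract in either set by the edgeR quasi-likelihood test. Their fold changes with extract in the RNase III set lay between -0.38 and 0.16 on the log2 scale.

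The epithelial members Trim16 and Trim29 and the most abundant members of no list were also uncalled with extract in the RNase III set. Trim16 changed by 0.19 ± 0.23 and Trim29 by -0.02 ± 0.27 on the log2 scale; 36.8% of the exon bases of Trim16 are shared with Fbxw10 on the same strand. Trim44 (-0.17 ± 0.12), Trim35 (-0.28 ± 0.11), Trim41 (-0.14 ± 0.11), Trim39 (0.12 ± 0.19) and Trim11 (0.09 ± 0.17) had adjusted p of 0.167 or more. Of the 21 untested members in the RNase III set 7 had no read in any library (Trim42, Trim43c, Trim50, Trim52, Trim60, Trim61 and Trim75), and the highest value of any was 1.495 CPM, for Trim55. In the knockout set 23 were untested, with 6 at no read in any library.

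The striated muscle members lay far apart between both PBS libraries of the RNase III set. Trim72, which seals damaged muscle membranes, was at 0.554 and 9.20 CPM with PBS, 5.11 and 6.595 CPM with extract, and 1.43 and 1.61 CPM with RNase III. Trim63, a ligase of the sarcomere, was at 0.222 and 2.76 CPM, 1.66 and 2.58 CPM, and 0.441 and 0.268 CPM in the same order. Trim63 passed the filter only through its D.f. libraries. The filter thus favoured its rise with extract and its fall with RNase III in every fit below, and its values are a description. Trim54 had no read in PBS replicate 1, which allows up to 0.166 CPM, and was at 5.30 CPM in PBS replicate 2, 0.990 and 2.01 CPM with extract, and 0.386 and 0.375 CPM with RNase III. PBS replicate 1 was thus the lowest library of the set for each of these 3 genes and PBS replicate 2 the highest. None of the 3 was called in any comparison with every library in the fit, and the standard errors of their log2 fold changes with extract or between extract with and without RNase III ran from 0.82 to 1.52. The summed level of 9 cardiac muscle markers had the same lowest and highest library, with 181 and 1337 CPM with PBS, 498 and 1037 CPM with extract, and 234 and 210 CPM with RNase III. Not every cardiac marker followed the sum. With extract 1 of the 9 was called lower, and 1 was called higher with RNase III than with untreated extract (log2 1.53, median of the 9 -1.91). Sums of 6 adipose and 8 skeletal muscle markers were also highest in PBS replicate 2, at 127 and 24.8 CPM. In the knockout set Trim72 was at 3.19 CPM with PBS and 2.61 and 3.35 CPM with extract in wild type, and at 0.567 CPM with PBS and 0.425 and 1.84 CPM with extract in the knockout, and the cardiac markers summed to 840, 445 and 656 CPM in wild type and to 149, 129 and 185 CPM in the knockout. The knockout libraries were the lower ones for both. At most 1 cardiac marker was at 0 in any library, and the part of cardiac tissue in these values was not tested. Other choices of libraries changed the calls of these genes: without PBS replicate 1, all 3 were called lower with RNase III than with PBS (log2 -3.78 for Trim54, -2.95 for Trim63 and -2.59 for Trim72). Without PBS replicate 2, Trim63 and Trim72 were called higher with extract (log2 3.22 and 3.38, adjusted p = 0.014 and 0.00198). All 3 were called lower with RNase III than with untreated extract without PBS replicate 1, without PBS replicate 2 and with only the 2 groups compared in the fit, where adjusted p ran from 0.00247 (Trim72) to 0.0364 (Trim54).

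**Figure D5:**
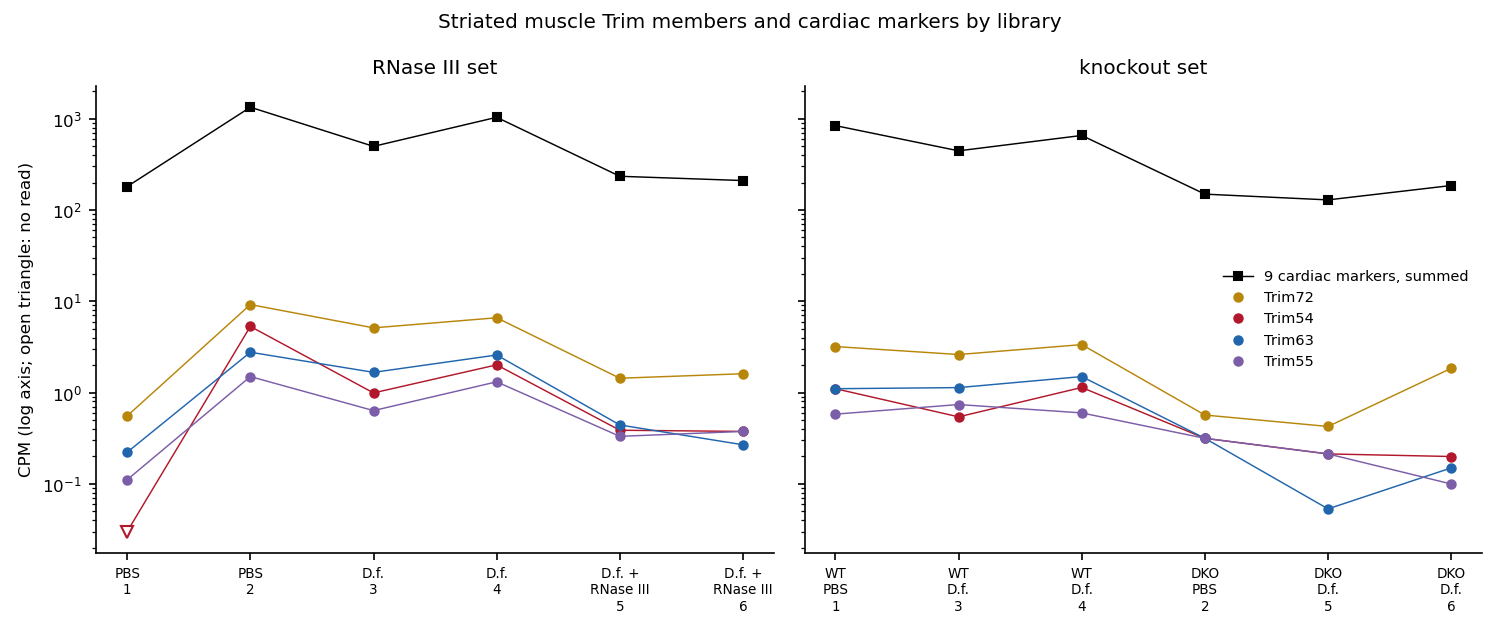
CPM (log axis) of 4 striated muscle Trim members and the sum of 9 cardiac markers in each library of both sets; lines only join the points of one gene, and the open triangle marks no read. PBS replicate 1 of the RNase III set lies at the bottom and PBS replicate 2 at the top for all 5 series, and in the knockout set the knockout libraries lie below the wild-type ones.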

How the data were processed

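RNA of whole lung was isolated with TRIzol and made into Illumina TruSeq total RNA libraries read as 100-base single ends, per the labels' protocols. Per the series' design text, reads were mapped to mm9 with TopHat and genes quantified with HTSeq; TopHat2 2.0.8b and bcl2fastq are named in the submitters' processing notes. Which annotation, version and strandedness HTSeq was run with is not given in sources used here. The authors deposited raw counts, 1 table per library. Of the reads, 23.1% to 28.3% were assigned to genes and 36.8% to 44.6% were not uniquely aligned; these and other unassigned totals stayed out of library sizes and tests.

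Groups came from the sample titles. Counts were tested in R 4.3.3 with the quasi-likelihood test of edgeR 4.0.16 (TMM, genes at a mean CPM of at least 1, groups of a set sharing 1 estimate of the spread), with Benjamini-Hochberg adjustment over all genes tested and a threshold of 0.05. With 3 (RNase III set) or 2 (knockout set) residual degrees of freedom, each lone PBS library is assumed to vary like the other groups. A total of 8 comparisons was made. CPM uses TMM-scaled library sizes, and errors of log2 fold changes are standard errors. DESeq2 1.42.0, other filters, other scalings and leaving out single libraries were alternatives; fits without a library kept the genes tested. The method was also run on counts simulated with known changes from its own model of these data. Such a run cannot show whether that model suits the real libraries. Gene positions and exon lengths are from GENCODE mouse release M1 (NCBIM37), promoters from RefSeq (GRCm38.p6).

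The text names each member called in any comparison, the tested members of the role lists (cluster, sensing, chromatin, muscle, epithelial) and the 5 most abundant other members. Promoters are printed for members called lower both with RNase III and in the knockout. Members and lists were chosen with earlier results of these data known.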

Additional observations from a re-analysis of the deposited data

How the results depend on the processing

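Counts of called members took 89 alternative values over the 8 comparisons, of which 66 stayed within 1.5 times the count reported. Among the others, DESeq2 called 10 members for D.f. against PBS in wild type of the knockout set (3 reported), 10 for knockout against wild type given extract (5 reported) and 5 for the difference of responses (0 reported). Over all genes DESeq2 called 642, 736 and 213 of 14107 in the same order. The edgeR test called 179 genes higher and 18 lower, 70 higher and 274 lower, and 0. For D.f. against PBS in wild type of the knockout set, no filter on low counts gave 5 and a fit over all 12 libraries gave 6. Without a term for the set, the fit over both sets called 8 members (15 reported). Fits that each left out 1 library called 7 to 17 members for D.f. against PBS and 3 to 18 for RNase III against untreated extract in the RNase III set, 0 to 3 for extract with RNase III against PBS, 0 to 16 for the wild-type and 0 to 3 for the knockout response, 0 to 13 for knockout against wild type, 0 to 11 for the difference of responses, and 12 to 16 over both sets. The counts from other filters, other fits and left-out libraries stand without the share of all genes, so they describe the fits and not the members. The cause was not tested. Of 51 calls of single members, 18 held in every fit; over 602 pairs of a call and a fit, 512 held, 90 missed the threshold and 0 changed direction. Trim54, not called with extract in the RNase III set (log2 -0.85), had a log2 fold change of 7.94 (adjusted p = 0.0116) without PBS replicate 2 and of -1.83 without PBS replicate 1; in the first case the remaining PBS library has no read of this gene, so the value depends on the prior count and is no bound. Changes of sign between values that were both uncalled were not counted as reversals. No paired analysis was possible because the groups of a set share no replicate number. Each group holds 1 or 2 libraries, members below 1 CPM were not tested, and reads that Trim genes share with copies or opposite-strand genes limit Trim12c, Trim14, Trim16, Trim34a and Trim5.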
